A study of Homo sapiens with 12 samples.

Results

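The genes for the receptors of the small-molecule neurotransmitters GABA, glutamate, acetylcholine, glycine, serotonin and dopamine were examined in SH-SY5Y cells, a human neuroblastoma line with noradrenergic features that is widely used as a model of neurons. They were chosen by gene symbol alone, as the family symbols of these receptors, with antisense genes, an intronic transcript and pseudogenes left out. The rule matched 101 symbols, 7 were left out, and 94 of the 55765 symbols in the count files remained. Total RNA was sequenced after ribosomal RNA depletion from 12 cultures in 4 groups of 3, and every culture was differentiated with all-trans retinoic acid (ATRA) for 7 days. In the co-treatment experiment hydrogen peroxide (H2O2) was present together with ATRA for the whole 7 days, and in the pre-treatment experiment H2O2 was given 72 h before ATRA was started. Each experiment had its own control group, which received ATRA without H2O2. The design asks how peroxide changes the transcriptome of differentiating cells, and here the question is which receptor transcripts changed with it. The sources give the H2O2 dose in different units, 10 mM in a sample label and 10 μM in the study's methods. SH-SY5Y is a clone of a single line, and nothing in the labels says whether the replicates were separate cultures started on separate days, so that the p-values measure only the spread between these samples.

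Ionotropic receptors are ligand-gated channels built from several subunits, each with its own gene. The nicotinic acetylcholine, GABA-A, glycine and serotonin type 3 receptors are pentamers, and the AMPA, kainate and NMDA receptors for glutamate are tetramers. The muscarinic, metabotropic glutamate, GABA-B, dopamine and remaining serotonin receptors act through G proteins. In sympathetic ganglion neurons, the cell lineage from which neuroblastoma arises, fast transmission is carried mainly by nicotinic receptors that contain the CHRNA3 and CHRNB4 subunits.

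The reads assigned to genes numbered between 27576276 and 98287391 per library, and the receptor genes took 0.0688% to 0.129% of them. Pre-treatment control replicate 3 stood apart from its own group. The chi-square per degree of freedom between gene counts was 499 and 544.6 for its pairs with replicates 1 and 2, and 24.8 to 146.7 for the other replicate pairs of the series. Pre-treatment control replicates 1 and 2 in turn differed from the other 10 libraries in composition. They had 0.80 and 0.83 reads on no annotated gene for each read on a gene, against 0.20 to 0.46 elsewhere, and 1.29% and 2.28% of their gene reads were on small RNA genes, against 4.08% to 13.4%. The pre-treatment values are therefore given with and without replicate 3, and the part of these library differences in the results was not tested. The neuron markers summed to between 3065 and 4305 CPM (counts per unit of library size, the usual scaled read count) and 10 of 10 had a mean of at least 1 CPM, while 9 of 10 noradrenergic neuroblastoma markers, 6 of 10 substrate-adherent or mesenchymal markers, 2 of 8 glial markers and 0 of 6 blood markers did so.

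Before the values, the sequences in front of 3 genes on which the results turn are shown. Of the 94 genes, 72 had an entry among the RefSeq promoter windows (GRCh38.p14), with 100 windows between them, and the 250 bases before each transcription start were searched on both strands. CHRNA3 is the gene called in co-treatment. Its upstream sequence lay on the minus strand at chr15:78620997-78621246 of GRCh38.p14 and held 4 matches to the GC box GGGCGG, 3 of which overlap. Capitals mark the GC box, here on the reverse strand.
CHRNA3: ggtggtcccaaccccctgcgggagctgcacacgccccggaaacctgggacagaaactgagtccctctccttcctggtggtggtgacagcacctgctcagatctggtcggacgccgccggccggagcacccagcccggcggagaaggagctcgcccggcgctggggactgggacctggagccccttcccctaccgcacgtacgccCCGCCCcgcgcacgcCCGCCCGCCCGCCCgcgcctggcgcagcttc
GRIK5 had the smallest p-value in pre-treatment without control replicate 3. Its window was at chr19:42070207-42070456, also on the minus strand, with 2 matches to the same letters.
GRIK5: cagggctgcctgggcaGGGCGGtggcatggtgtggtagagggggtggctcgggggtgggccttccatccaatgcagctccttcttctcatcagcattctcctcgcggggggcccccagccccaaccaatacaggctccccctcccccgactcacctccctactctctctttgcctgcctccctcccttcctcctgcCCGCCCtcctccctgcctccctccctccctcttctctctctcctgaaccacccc
GC boxes are common, and 42.6% of all 35116 windows and 48.0% of those of the receptor genes held at least 1. GRIA2 went in opposite directions in the experiments, a difference that was not called over the 12 libraries (adjusted p = 0.317, edgeR). Its window carried a match to the core of RE1, the element bound by REST, a repressor of neuronal genes. The core was searched as CAGCACC and GGACAG with 2 bases between them. That match occurred in 16 of the 35116 windows (0.0456%) and in 3 of the 100 receptor gene windows, those of GRIA2, DRD3 and HTR5A. The 30 bases around it, on the plus strand at chr4:157220384-157220413, are shown with the reverse complement of the core in capitals.
GRIA2: gcgaggcgCTGTCCTCGGTGCTGaaaggcc
TATAAA was present in 8.0% of receptor gene windows and 10.7% of all windows. A retinoic acid response element with 5 spacer bases, searched as GGTCA repeated after 6 bases because the first base of the second repeat was left free, was found in 0 of the 100 windows, against 16 of all windows (0.0456%). The antioxidant response element core, TGAC and GCA with 3 bases between them, was in 1, that of GABRR3 (2.59% of all windows), and the AP-1 site TGACTCA in 3 (4.2% of all windows), 1 of which was also that of GABRR3. These are matches of letters and not bound sites.

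Nicotinic subunits were the most abundant receptor transcripts in these cells. Levels were compared between genes as CPM scaled by trimmed mean of M-values (TMM) and divided by the kilobases of exon. CHRNB2, the most widely used beta subunit of neuronal nicotinic receptors, had the highest mean over the 12 libraries with 32.3 CPM per kilobase (range 25.0 to 40.9). CHRNA3, the ganglionic alpha subunit, followed with 30.6 (20.04 to 47.5), and the ranges of the pair overlapped. Within libraries, CHRNA3 was above CHRNB2 in every co-treated library and below it in every control of both experiments. In the pre-treated libraries the order varied. Below this pair, CHRM1, an excitatory muscarinic receptor, HTR2B, a serotonin receptor coupled to phospholipase C, and CHRNB1, best known as the beta subunit of the muscle nicotinic receptor, lay close together at 6.80, 6.74 and 6.69. They were followed by GRIK5 at 5.004, CHRNB4 at 4.55, CHRNA5 at 4.26, GRIK4 at 3.96, GRIA3 at 3.82 and GRM7 at 3.28 CPM per kilobase. Their ranges over the libraries overlapped from each to the next, so that the order of these neighbours is not fixed. The mean of GRIK5 was raised by pre-treatment controls 1 and 2, the libraries of different composition. It was at 60.3 and 99.7 CPM in them and at 11.9 to 29.8 CPM in the other 10 libraries. The place of GRIK5 in this order therefore depends on these controls. The 10 highest genes held 78.7% of the summed level of all 94. Reads of some of these genes could be shared. GRIA2, GRIA3 and CHRNB1 overlap exons of another gene on the same strand. On the opposite strand, CHRM1, CHRNB2, CHRNB4 and GRM7 overlap exons of an unnamed gene and HTR2B those of PSMD1. CHRNA3 and CHRNA5 overlap each other in the same way. Division by the length of the canonical transcript, an alternative chosen after the data were seen, put CHRNA3 (48.3) before CHRNB2 (32.4) and raised GRIK2 to 12.8, and 8 of the 10 highest genes were the same.

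**Figure D1:**
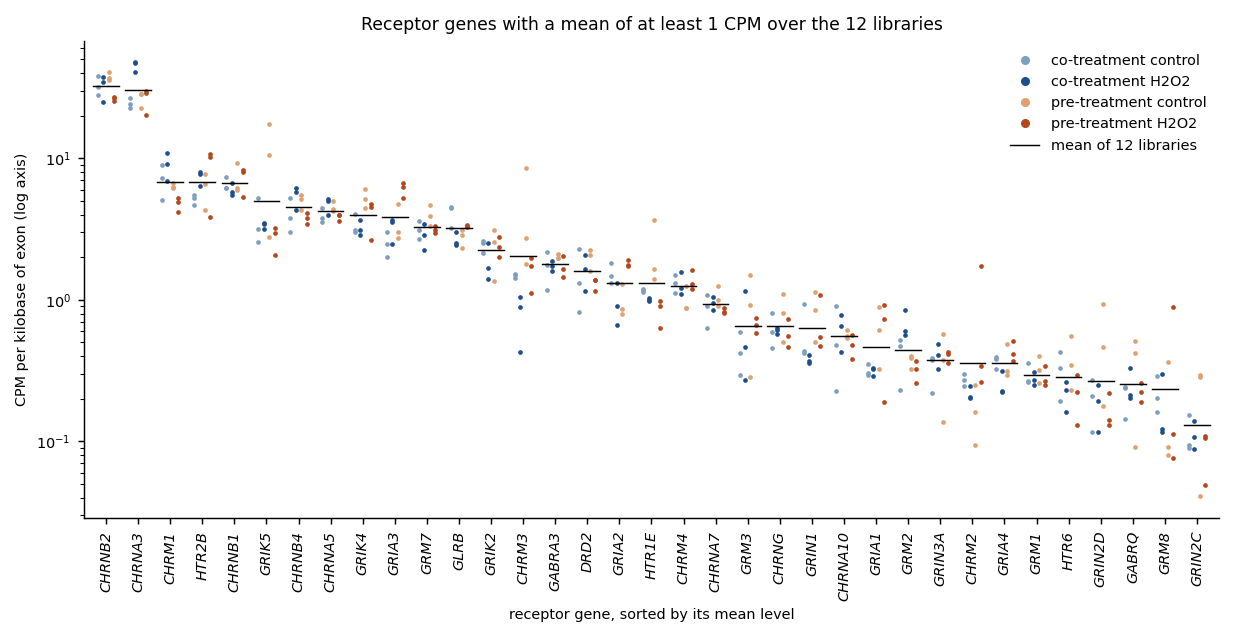
Level of 35 receptor genes with a mean of at least 1 CPM, in CPM per kilobase of exon on a log axis, with 1 point per library coloured by group and a line at the mean of the 12 libraries. CHRNB2 and CHRNA3 have means of 32.3 and 30.6, and CHRM1, HTR2B and CHRNB1 lie between 6.69 and 6.80.

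Across the receptor classes, a single gene often supplied most of the signal. GLRB, the glycine receptor subunit that anchors the channel to gephyrin, held 95.3% of the glycine receptor level, HTR2B 80.3% of the serotonin receptor level and DRD2, an inhibitory dopamine receptor, 83.6% of the dopamine receptor level. The nicotinic class was spread more widely, with 8 of 16 genes at 1 CPM or more and a summed level of 80.7 CPM per kilobase out of 142.2 for all classes. All 4 AMPA genes and 3 of 5 kainate genes reached 1 CPM, as did 3 of 19 GABA-A, 4 of 5 muscarinic, 5 of 8 metabotropic glutamate, 4 of 7 NMDA and 3 of 17 serotonin receptor genes. GRIN1, the obligatory NMDA subunit, was the highest of its class at 0.628 CPM per kilobase, while GRIN2A and GRIN2B, its main partners in forebrain neurons, had 0 reads in 6 of the 6 co-treatment libraries. GRID1 was the higher of the delta glutamate receptor genes at 0.127 CPM per kilobase.

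At the low end, 22 of the 94 genes had fewer than 12 reads over all libraries together and 4 had none, namely GABRA6, GABRG1, HTR1A and HTR1B. A count of 0 over the 12 libraries allows a level of up to 0.00439 CPM, from 3 reads and for counting error only. The GABA-B receptor, an obligate pair of GABBR1 and GABBR2, could not be assessed. GABBR2 had a mean of 0.00382 CPM per kilobase. GABBR1 had 1 read in total, but it lies at 29523406 to 29601753 on chromosome 6 (hg19), in a stretch from 29 to 33 Mb in which 2 of 142 protein-coding genes (1.41%) had a mean of 1 CPM or more, against 484 of 763 (63.4%) on the rest of that chromosome. Genes that every cell uses were also near 0 in that stretch. TUBB, a beta-tubulin, had 6 reads and ABCF1, a translation factor, had 1 read over the 12 libraries, while HSP90AB1, a chaperone encoded outside it, had 779281. The near absence of GABBR1 reads can therefore not be read as a low level, and GABBR1 was the only receptor gene inside the stretch.

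In co-treatment, 48 receptor genes passed the filter on low counts and 1 of them, CHRNA3, was called at a Benjamini-Hochberg adjusted p below 0.05 in the edgeR quasi-likelihood test, which called 0.598% of the 22089 genes tested. CHRNA3 was at 127, 114 and 108 CPM in the control libraries and at 226, 194 and 222 CPM with H2O2. Every treated library was above every control, and the means were 117 ± 9.49 and 214 ± 17.7 CPM (SD, n = 3). The log2 fold change was 0.88 ± 0.125 (SE), with an adjusted p of 0.00749 (edgeR). The adjusted p rose to 0.154 in 1 edgeR fit over both experiments, where it was no longer called. The call was also lost without co-treatment control replicate 2 (log2 fold change 0.86) and without treated replicate 3 (0.85), with an adjusted p of up to 0.102, and the fold change stayed between 0.83 and 0.95 whichever replicate was left out.

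CHRNA3 lies on chromosome 15 at 78885394 to 78913637 (hg19, minus strand) between CHRNA5 and CHRNB4, with which it is coexpressed in ganglion neurons. The alpha-5 gene runs the other way at 78857862 to 78887611, so that the exons of the pair overlap at their 3' ends, and whether the counting used the strand is not given in the sources used here. CHRNA5 was at 16.1, 12.8 and 13.7 CPM in the controls and at 18.2, 14.3 and 18.6 with H2O2. Its groups overlapped, with a log2 fold change of 0.26 ± 0.158 (adjusted p = 0.756, edgeR). CHRNB4 went from 26.1, 18.8 and 15.1 CPM to 30.8, 21.5 and 28.6, again with overlap, and its log2 fold change was 0.43 ± 0.199 (adjusted p = 0.623). CHRNB2, on another chromosome, had 226, 186 and 164 CPM in the controls and 220, 147 and 205 with H2O2 (log2 fold change -0.01 ± 0.168). Per kilobase, CHRNA3 made up 37.3% ± 2.00 of the sum of CHRNA3, CHRNA5, CHRNA7, CHRNB2 and CHRNB4 in the controls and 51.1% ± 2.83 with H2O2 (SD, n = 3). The exact two-sided permutation p was 0.1, the smallest that 3 libraries against 3 can give, and 0.233 after adjustment over 14 such comparisons of shares. CHRNA7 has a near-identical partial copy, CHRFAM7A, and its own level is uncertain. In pre-treatment CHRNA3 was at 136, 108 and 136 CPM in the controls and at 142, 137 and 95.4 CPM with H2O2, and its log2 fold change was 0.00 ± 0.207 over all 6 libraries.

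**Figure D2:**
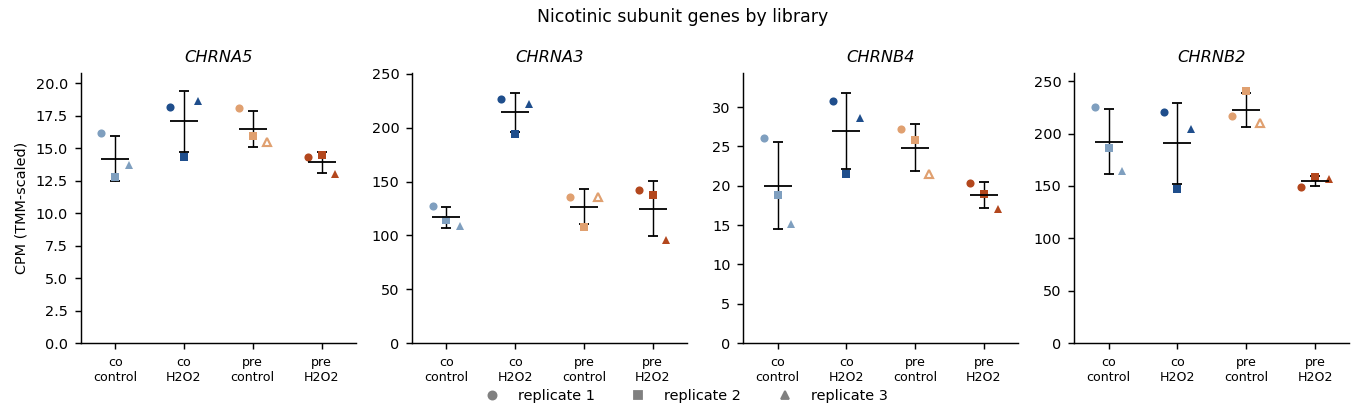
CPM of CHRNA5, CHRNA3, CHRNB4 and CHRNB2 in each library, by group, with symbols for the replicate, bars for the mean and SD (n = 3) and an open symbol for pre-treatment control replicate 3. The CHRNA3 values of the co-treated libraries, 194 to 226 CPM, lie above those of all other groups.

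Beside CHRNA3, 7 receptor genes reached an unadjusted p below 0.05 in co-treatment, among them the AMPA subunits GRIA2 and GRIA4 and the NMDA subunit GRIN1 with lower values, and none of the 7 was called. At an unadjusted p below 0.05, 3 genes were higher and 5 lower, which was 16.7% of the receptor genes tested against 8.15% of all genes. The groups did not overlap for 4 higher and 7 lower genes, 22.9% against 14% of all genes (6.58% higher and 7.37% lower), and the median log2 fold change was -0.02 against 0.00 for all genes tested. CHRM3, a muscarinic receptor coupled to calcium release, was at 22.8, 21.6 and 23.3 CPM in the controls and at 13.5, 15.9 and 6.49 with H2O2. The log2 fold change was -0.91 ± 0.255, with an adjusted p of 0.215 (edgeR quasi-likelihood). It was called by DESeq2 (adjusted p = 0.0221) and by edgeR's exact test (0.0498). CHRM3 overlaps an antisense gene. GRIA2, the AMPA subunit whose edited form makes the channel impermeable to calcium, was at 21.0, 25.8 and 18.8 CPM in the controls and at 9.49, 18.6 and 12.8 with H2O2. The highest treated library lay just below the lowest control, and the log2 fold change was -0.67 ± 0.221 (adjusted p = 0.36). GLRB was at 10.9, 15.3 and 15.2 CPM without and at 8.28, 10.2 and 8.59 with H2O2, a log2 fold change of -0.61 ± 0.177 (adjusted p = 0.249). HTR2B had values of 10.1, 12.03 and 11.3 CPM in the controls and 16.7, 17.4 and 13.8 in the treated libraries, with a log2 fold change of 0.52 ± 0.154 (adjusted p = 0.257). HTR2B shares exon sequence with PSMD1 on the opposite strand. The remaining genes at an unadjusted p below 0.05 were GRM2 (log2 fold change 0.71), GRIA4 (-0.52) and GRIN1 (-0.65), with adjusted p of 0.54, 0.583 and 0.598. The noradrenergic markers summed to between 3171 and 4014 CPM in the co-treatment controls and between 2262 and 2978 CPM with H2O2, with 9 of the 10 at 1 CPM or more and none at 0 reads, and 0 of the 9 tested were called. The mesenchymal markers summed to between 632 and 885 CPM in the controls and between 794 and 839 CPM with H2O2, and 1 of the 8 tested was called higher, the intermediate filament gene VIM (log2 fold change 1.16, adjusted p = 0.0272, edgeR). None of the 10 neuron markers tested was called. The part of these markers in the receptor values was not tested.

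The shares of the AMPA subunits were compared as a measure that does not depend on the scaling of a library, and none of the comparisons could pass with 3 libraries against 3. Of the summed level per kilobase of GRIA1 to GRIA4, GRIA2 made up 32.7% ± 4.12 in the controls and 19.9% ± 2.89 with H2O2, and GRIA3 52.7% ± 4.17 and 67.9% ± 2.67 (SD, n = 3). The groups did not overlap in either share, and both had an exact permutation p of 0.1 (adjusted p = 0.233). The size and order of the shares depend on the exon lengths, 14228 bases for GRIA2 and 6447 for GRIA3. Those of the canonical transcripts are 5611 and 5147 bases. Before division by length, GRIA2 was at 21.8 and GRIA3 at 16.1 CPM on average in the co-treatment controls. In pre-treatment the GRIA2 share was 18.3% ± 1.85 in the controls and 20.5% ± 3.64 with H2O2 (exact permutation p = 0.5), and the co-treated libraries were thus nearer to both pre-treatment groups than to their own controls. The GRIA3 share was 64.1% ± 0.431 and 68.1% there (exact permutation p = 0.1).

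In pre-treatment over the 6 libraries as labelled, none of the 54 receptor genes tested was called by the edgeR quasi-likelihood test, which called 6 of 24743 genes (0.0242%). An unadjusted p below 0.05 was reached by 13 of them, 5 higher and 8 lower, which was 24.1% against 11.2% of all genes. The exact test of edgeR and limma-voom also called 0, beside 1.1% and 0% of all genes. DESeq2 called 4, GRIA2 and CHRM2 higher and GRIK5 and HTR1E lower, beside 2.46% of all genes. The groups did not overlap for 6 higher and 9 lower genes, 27.8% against 16.4% of all genes (7.97% higher and 8.47% lower), and the median log2 fold change was -0.21 against -0.01 for all genes.

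Without control replicate 3, 13 of 55 receptor genes were called (23.6%), which was close to the 26.1% of the 26350 genes tested, and 3 of them were higher and 10 lower. Among all genes the calls were split evenly, at 13.2% higher and 12.8% lower, and the median log2 fold change was 0.01 against -0.26 for the receptor genes. At an unadjusted p below 0.05 there were 25 receptor genes, 45.5% against 40.5% of all genes. The groups did not overlap for 7 higher and 23 lower receptor genes, 54.5% against 57.2% of all genes (25.7% higher and 31.5% lower). Scaling by library size alone shifted the median of all genes to -0.21. It called 16 receptor genes, beside 23.8% of all genes. Of these 16, 0 were higher, so that the 3 higher calls depend on the scaling. The count also depended on control replicate 2, but without it 1 control was left, so that no count is given. The log2 fold change of GRIK5 was then -1.86. Without treated replicates 1 and 2 the count was 6 and 7, beside 12.5% and 15.5% of all genes.

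The higher calls were AMPA subunits and a muscarinic receptor. GRIA2 was at 18.5 and 12.3 CPM in control replicates 1 and 2, at 11.3 in replicate 3 and at 24.8, 25.0 and 27.1 CPM after H2O2 pre-treatment. All 3 treated libraries were above all 3 controls, and replicate 3 lay farther from the treated group than the other controls. The log2 fold change was 0.80 ± 0.189 without replicate 3 (adjusted p = 0.0172, edgeR) and 0.90 ± 0.213 with it (adjusted p = 0.32). GRIA3 had the highest mean level per kilobase of the AMPA subunits over the 12 libraries. It was at 30.5 and 17.7 CPM in controls 1 and 2 and at 19.3 in replicate 3. In the treated libraries it was at 43.3, 40.2 and 34.0 CPM. These groups did not overlap either, with log2 fold changes of 0.77 ± 0.229 (adjusted p = 0.0394) without and 0.83 ± 0.234 (adjusted p = 0.32) with the third control. By library size alone GRIA2 was at 0.58 (adjusted p = 0.062) and GRIA3 at 0.54 (adjusted p = 0.119). The other AMPA genes had overlapping groups, GRIA1 with a log2 fold change of 0.08 and GRIA4 with 0.18. CHRM2, a muscarinic receptor that inhibits adenylyl cyclase, was at 1.34 and 0.788 CPM in controls 1 and 2, at 2.103 in replicate 3 and at 2.85, 2.19 and 14.4 CPM in the treated libraries. Its log2 fold change was 2.66 ± 0.828 (adjusted p = 0.0456, edgeR). The size depended on treated replicate 3, without which it was 1.27 and still called (adjusted p = 0.0247), while the call was lost without control replicate 1 (adjusted p = 0.123) or 2 (adjusted p = 0.229).

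**Figure D3:**
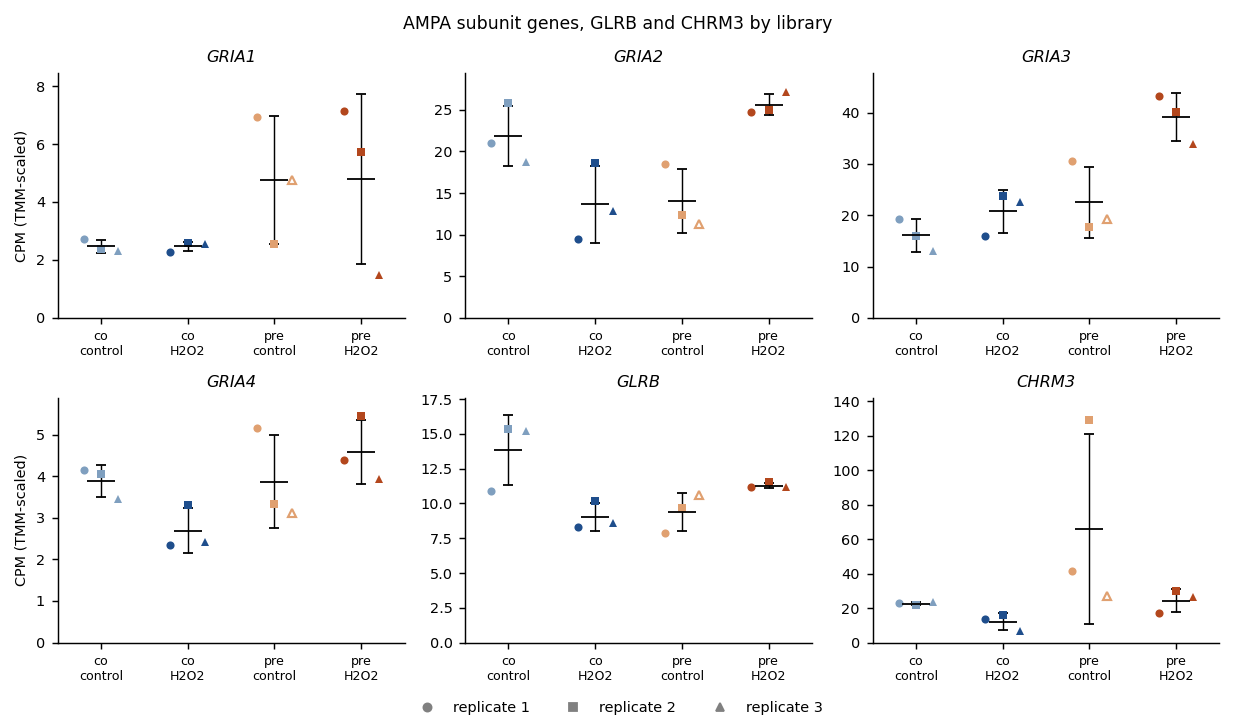
CPM of GRIA1 to GRIA4, GLRB and CHRM3 in each library, by group, with symbols for the replicate, bars for the mean and SD (n = 3) and an open symbol for pre-treatment control replicate 3. GRIA2 is lower than control in the co-treated libraries (9.49 to 18.6 against 18.8 to 25.8 CPM) and higher in the pre-treated ones (24.8 to 27.1 against 11.3 to 18.5 CPM).

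Of the 10 lower calls, 4 were glutamate receptor genes, and 7 of the 10 were no longer apart when control replicate 3 was included. GRIK5, a kainate subunit that needs a partner to form channels and raises their affinity for glutamate, was at 60.3 and 99.7 CPM in controls 1 and 2, at 15.9 in replicate 3 and at 11.9, 18.4 and 17.1 CPM after H2O2. The log2 fold change was -2.27 ± 0.239 without replicate 3 (adjusted p = 0.00107, edgeR), a call that held whichever other library was left out, and -1.85 ± 0.542 (adjusted p = 0.32) with it. Replicate 3 lay within the treated range. In the co-treatment experiment GRIK5 was at 14.6 to 29.8 CPM in controls and 18.2 to 20.1 with H2O2, so that controls 1 and 2 of pre-treatment were above all 10 other libraries. The NMDA subunits GRIN2D and GRIN2C behaved alike. GRIN2D was at 2.58 and 5.15 CPM in controls 1 and 2, at 0.975 in replicate 3 and at 0.777, 1.204 and 0.714 after H2O2 (log2 fold change -2.04 ± 0.362, adjusted p = 0.0064). GRIN2C was at 2.43 and 2.52, at 0.350 and at 0.425, 0.940 and 0.914 CPM (log2 fold change -1.64 ± 0.361, adjusted p = 0.0137).

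The same pattern was seen in receptors coupled to G proteins. DRD4, a dopamine receptor that inhibits adenylyl cyclase, was at 0.907 and 1.07 CPM in controls 1 and 2, at 0.183 in replicate 3 and at 0.163 to 0.218 in the treated libraries (log2 fold change -2.26 ± 0.389, adjusted p = 0.00578). GRM6, the metabotropic glutamate receptor known from retinal ON bipolar cells, was at 1.25 and 1.86, at 0.396 and at 0.508 to 0.651 CPM (-1.35 ± 0.321, adjusted p = 0.0184). CHRM3 was at 41.7 and 129 CPM in controls 1 and 2, at 27.0 in replicate 3 and at 16.99, 29.9 and 26.2 after H2O2. Control replicate 2 was far above replicate 1, and the log2 fold change of -1.74 ± 0.405 (adjusted p = 0.0167) became -0.70 (adjusted p = 0.164) without it. The GABA-A theta subunit GABRQ had 3.30 and 2.74, 0.594 and 1.22 to 1.68 CPM (-0.99 ± 0.253, adjusted p = 0.0233). In these 7 genes, GRIK5, GRIN2D, GRIN2C, DRD4, GRM6, CHRM3 and GABRQ, controls 1 and 2 were above all other 10 libraries. The groups overlapped once replicate 3 was counted. Being called lower without replicate 3 partly fixes this position. Among all 55 receptor genes tested, controls 1 and 2 were above the other 10 libraries in 12 and below them in 2. The share among all genes was not counted. These controls are the libraries with 0.80 and 0.83 reads on no gene per gene read, and the part of that in the values was not tested.

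**Figure D4:**
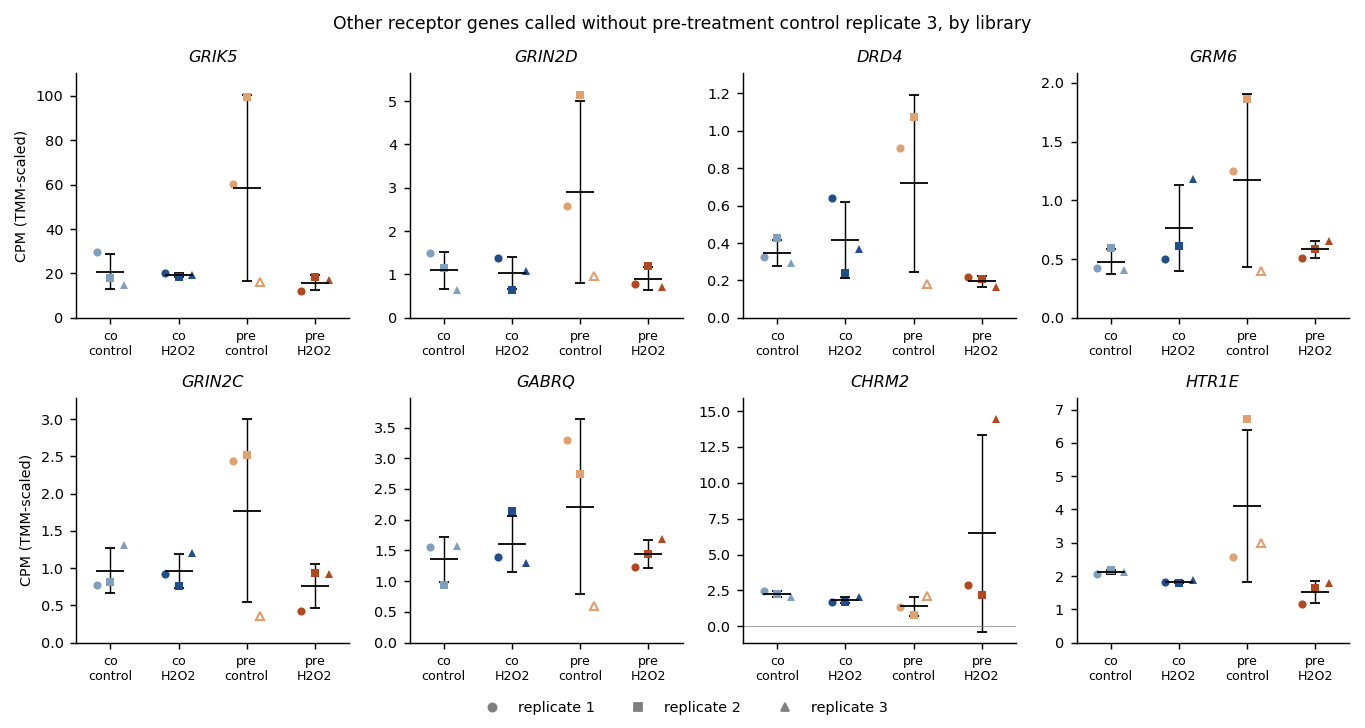
CPM by library and group of 8 further receptor genes called without pre-treatment control replicate 3, with symbols for the replicate, bars for the mean and SD (n = 3) and an open symbol for that control. For GRIK5, GRIN2D, DRD4, GRM6, GRIN2C and GABRQ, pre-treatment controls 1 and 2 lie above the 10 other libraries, and CHRM2 has 1 treated library at 14.4 CPM.

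The other 3 lower calls stayed apart with all controls. CHRNB2 was at 217, 241 and 210 CPM in the controls and at 149, 159 and 156 CPM after H2O2. All controls were above all treated libraries, and the log2 fold change was -0.49 ± 0.108 (adjusted p = 0.0136) without and -0.49 ± 0.153 (adjusted p = 0.32, edgeR) with replicate 3. DRD2 was at 8.54, 9.20 and 6.60 CPM in the controls and at 5.73, 5.65 and 4.76 in the treated libraries (log2 fold change -0.65 ± 0.183, adjusted p = 0.0328, without replicate 3). HTR1E, a serotonin receptor outside the rule for named genes that is given because it completes the calls, was at 2.58, 6.72 and 3.00 CPM and at 1.16, 1.64 and 1.79 CPM (-1.53 ± 0.391, adjusted p = 0.0235). Of the 13 called genes 6 were thus without overlap over the 6 libraries, against 1860 of all 6871 genes called. These 6 were GRIA2, GRIA3 and CHRM2, which were higher, and CHRNB2, DRD2 and HTR1E, which were lower. Relative to the distance between controls 1 and 2 and the treated group, replicate 3 was past the midpoint toward the treated group in 8 of the 13 genes and in 6044 of all 6871 genes called. Of the remaining abundant genes, CHRM1, CHRNB1, CHRNB4, CHRNA5, GRIK4, GRM7 and HTR2B had log2 fold changes of -0.43 to 0.67 and were not called. The noradrenergic markers were at 2671 to 4170 CPM in the controls and at 1793 to 2532 CPM after H2O2, and 1 of the 9 tested was higher and 4 lower without replicate 3. The mesenchymal markers summed to between 905 and 1200 CPM in the controls and between 441 and 794 CPM after H2O2. Without replicate 3, 3 of the 9 tested were higher, VIM (log2 fold change 2.66, adjusted p = 0.000718, edgeR), YAP1 (3.11) and CD44 (1.11). YAP1 was at 0.0544 and 0.0876 CPM in controls 1 and 2, where 3 reads make 0.0544 and 0.0657 CPM. NOTCH2 was lower (-1.03, adjusted p = 0.0231, edgeR), at 792.5 and 571.5 CPM in controls 1 and 2 and at 202.6 to 387 CPM after H2O2. VIM was also called over all 6 libraries (2.42, adjusted p = 0.0442). Of the 10 neuron markers 3 were higher and 1 lower without replicate 3, and the part of these markers in the receptor values was not tested.

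**Figure D5:**
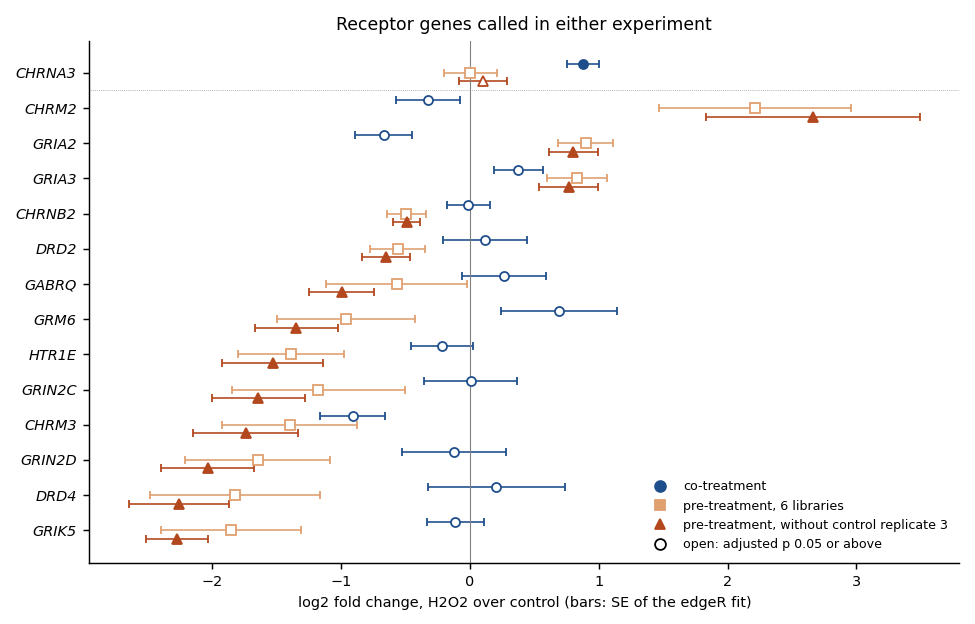
Log2 fold change of H2O2 over control with its SE for the 13 receptor genes called in pre-treatment without control replicate 3 and for CHRNA3, in co-treatment, in pre-treatment over 6 libraries and without that control. Filled symbols passed the adjusted p of 0.05, and GRIA2 is at -0.67 in co-treatment and 0.80 and 0.90 in pre-treatment.

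To ask whether a gene responded differently in the 2 experiments, an interaction term was fitted to all 12 libraries. The edgeR quasi-likelihood test called 0 of 52 receptor genes and 7 of 24407 genes (0.0287%). An unadjusted p below 0.05 was reached by 16 receptor genes, 30.8% against 8.94% of all genes. limma-voom called 0 (0.00819% of all genes) and DESeq2 called 1, GRIA2 (0.422% of all genes). GRIA2 had the smallest p-value of the receptor genes, with a difference of 1.54 ± 0.34 on the log2 scale (pre-treatment minus co-treatment, adjusted p = 0.317), followed in p by CHRNA3 at -0.90 ± 0.234 (adjusted p = 0.398) and GLRB at 0.88 ± 0.252 (adjusted p = 0.453). Without pre-treatment control replicate 3, 7 of 54 receptor genes (13%) were called against 8.02% of all genes, 3 with the higher and 4 with the lower response in pre-treatment (3.32% and 4.7% of all genes). At an unadjusted p below 0.05 there were 19, 35.2% against 28.1% of all genes.

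Genes that act with the receptors were followed in a list of 73 auxiliary, scaffold, chaperone and signalling genes, of which 66 were tested. The edgeR test called 0 in co-treatment, in pre-treatment over all 6 libraries and in the interaction. Without control replicate 3, 9 were higher and 18 lower, 40.9% against 26.1% of all genes. The lower calls were most frequent among the auxiliary subunits of AMPA and kainate receptors, where 1 of 11 was higher and 7 lower. The median log2 fold change of the 11 was -1.23 (-0.85 over all 6 libraries), while the AMPA subunits GRIA2 and GRIA3 were higher. Among auxiliary genes with all treated libraries below controls 1 and 2, the position of control replicate 3 varied. It was below all treated libraries for CACNG8 and SHISA6 and within their range for CACNG5 and CACNG7. For CACNG2, CACNG4, CNIH2 and SHISA7 it was above them. Among the 17 glutamatergic scaffold genes tested 2 were higher and 6 lower, and among 18 regulators of G protein signalling 3 were higher and 1 lower. The smallest p-values belonged to NLGN2, an adhesion protein of inhibitory synapses (log2 fold change -2.27 ± 0.212, adjusted p = 0.00098, edgeR), GNAO1, a G protein alpha subunit abundant in neurons (-2.11 ± 0.205, adjusted p = 0.000985), and SHANK2, a postsynaptic scaffold (-1.91 ± 0.195, adjusted p = 0.00105). NLGN2 was at 82.6 and 113 CPM in controls 1 and 2, at 17.5 in replicate 3 and at 14.1 to 22.2 after H2O2. GNAO1 was at 57.2 and 86.6, at 12.4 and at 12.9 to 18.4 CPM. SHANK2 was at 42.8 and 62.9, at 10.9 and at 11.1 to 14.7 CPM. Replicate 3 thus lay within or below the treated range in each.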

How the data were processed

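Total RNA of 12 SH-SY5Y cultures was depleted of ribosomal RNA and sequenced from stranded libraries. Per the labels and the study's methods, the authors checked reads with FastQC 0.11.8, trimmed them with cutadapt 2.10, mapped them to hg19 with HISAT2 2.1.0 and counted them per gene with HTSeq 0.7.2, and the deposited values are raw read counts per gene symbol and library. The strand setting and the annotation are not given in the sources used here. The 5 closing entries of each count file name no gene and were left out, and the reads on no gene came to 0.20 to 0.83 per gene read. The authors' own tables of fold changes and p-values were not used.

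Reads on genes numbered 27576276 to 98287391 per library, and counting error only is covered by the floor of 3 reads. A gene was kept when enough libraries to fill the smaller group reached the CPM that 5 reads make in the smallest one. TMM factors and the quasi-likelihood test of edgeR 4.0.16 (R 4.3.3) were applied to the whole table, with Benjamini-Hochberg adjustment over all genes tested and a call at an adjusted p below 0.05. SE is the log2 fold change divided by the root of the F statistic. The quasi-likelihood fits were run on simulated counts, and the outcome is not given here. Apart from planted changes, each simulated gene had the same mean in every library. The simulation therefore cannot speak to a library that stands apart. Shares were compared with exact two-sided permutation tests.

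The receptor genes and the marker and partner lists were chosen with earlier results of these data known. Named genes are those called in co-treatment, in pre-treatment over all libraries or in the interaction, up to 8 per direction called without pre-treatment control replicate 3, the 12 with the highest level per kilobase, the highest of each class, and the 3 partner genes with the smallest p. Auxiliary subunit genes are also named to give the position of pre-treatment control replicate 3. Coordinates and exon lengths are from GENCODE v44 lifted to hg19, where 33177 of 55765 symbols, and all 94 receptor genes, matched 1 gene. Of the 94, 32 share exon sequence with a gene on the opposite strand. Promoter sequences are from RefSeq on GRCh38.p14, a different build. Alternatives were edgeR's exact test, DESeq2 1.42.0, limma-voom (limma 3.58.1), other scalings and filters, 1 fit over both experiments, a fold change threshold, a replicate block and leaving out each library. The values of 1 receptor gene are not reported here.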

Additional observations from a re-analysis of the deposited data

Results flagged for a closer look

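Differences between the responses in pre-treatment and co-treatment were tested over 11 libraries, without pre-treatment control replicate 3, and 7 receptor genes were past an adjusted p of 0.05 in the edgeR quasi-likelihood test, 13% of those tested against 8.02% of all genes. On the log2 scale, as pre-treatment minus co-treatment, the difference was -2.21 for GRIK5, 1.42 for GRIA2, 0.99 for GLRB, -2.51 for DRD4, -2.09 for GRM6, -0.83 for CHRNA3 and 2.93 for CHRM2. With that control included none of the 7 was called and the adjusted p-values were 0.317 or above. The values of GRIK5, DRD4 and GRM6 move with controls 1 and 2 of pre-treatment, which lie above the 10 other libraries, and 1 treated library of CHRM2 is at 14.4 CPM.

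In 4 genes all treated libraries were on one side of their controls in co-treatment and on the opposite side in pre-treatment, with all 12 libraries counted. The share of all genes that did so was not counted. Groups without overlap, in either direction, were seen in 14% of all genes in co-treatment and 16.4% in pre-treatment. For CHRM2 the highest co-treated library, at 2.041 CPM, lay just below the lowest control, at 2.046 CPM. The difference was 2.52 for CHRM2, -1.98 for CHRM5, 0.88 for GLRB and 1.54 for GRIA2, with adjusted p of 0.511, 0.511, 0.453 and 0.317 in the test of the difference itself. CHRM5 is a low gene that overlaps AVEN on the opposite strand.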

How the results depend on the processing

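In co-treatment, where 1 receptor gene was called, edgeR's exact test, DESeq2 and the replicate block each called 2. They called 1.51%, 1.53% and 0.819% of all genes. No filter on low counts called 3, beside 1.44% of all genes. The 1 fit over both experiments called 0 (0.0123% of all genes). It called 1 (0.152%) when pre-treatment control replicate 3 was left out of it, a choice made after the data were seen. The count was 0 to 2 when replicates were left out, beside 0.0784% to 0.975% of all genes. In pre-treatment over all 6 libraries the count of 0 became 4 with DESeq2 (2.46% of all genes) and 1 without a filter (0.772%). It was 0 to 13 with a replicate left out, the 13 without control replicate 3, beside 0% to 26.1% of all genes. Without that control the 13 calls became 21 with no filter (20.2% of all genes) and 26 with the replicate block (40.8%). They became 8 with an absolute log2 fold change above 1 (11.2%). With a treated replicate also left out the count was 6 to 19, the 19 without treated replicate 3, beside 12.5% to 33.1% of all genes. With a further control left out 1 control remains, and no count is given. The interaction count of 0 became 1 with DESeq2 (0.422% of all genes) and 3 without a filter (0.639%). It was 0 to 7 with a library left out, the 7 without pre-treatment control replicate 3, beside 0% to 8.02% of all genes. The cause of these changes was not tested.

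With pre-treatment control replicate 3 as the only control, chosen after the data were seen, 4 log2 fold changes reversed, DRD4 to 0.088, GABRQ to 1.27, GRIN2C to 1.09 and GRM6 to 0.54. Of the other values of single genes, 960 kept their direction and side of the threshold, 68 passed it newly and 38 no longer passed.

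For libraries with the same replicate number, the correlation of their deviations from the group means was 0.0313, -0.0356 and -0.111 in co-treatment. It was -0.233, 0.0456 and -0.27 in pre-treatment. So few values, from deviations from means of 3 libraries, cannot decide whether the number pairs libraries. The labels name no pairing, and the block is given as a check only. Depth limits the genes below the floor of 3 reads, and GABBR1 cannot be read at any depth here.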

Other observations

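GRIA2 and GLRB are neighbours on chromosome 4, with 32092 bases between them, and were noticed together after their values were seen. In co-treatment both were below all controls (log2 fold changes -0.67 and -0.61, adjusted p 0.36 and 0.249, edgeR), and in pre-treatment both were above all controls over 6 libraries (0.90 and 0.29, adjusted p 0.32 and 0.609). GRM8 was at 0.485 to 0.715 CPM in 2 pre-treated libraries and at 5.65 CPM in treated replicate 3, the library in which CHRM2 was at 14.4 CPM, and at 0.508 to 2.30 CPM in the 3 controls.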
